A study of Rattus norvegicus with 6 samples.

Results

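Cytosolic ribosomal protein genes encode the proteins of the large (60S) and small (40S) subunits of the ribosome that translates nuclear mRNAs. They were read on a rat oligonucleotide array from hippocampal RNA of Syracuse High Avoidance (SHA) and Syracuse Low Avoidance (SLA) rats. The members were every probe set whose platform annotation names exactly 1 gene, with a symbol that starts with Rpl or Rps followed by a digit, or that is Rpsa or Rplp0 to Rplp2. Rps6k kinase genes, Rpl3l and symbols of pseudogenes ending in -ps and a digit were left out. This gave 58 of the 8799 probe sets on the array, for 40 of the 4737 genes that a probe set of 1 gene names, 28 of them named for the large subunit and 12 for the small subunit. The rule used the annotation and no measured value, but it was set with earlier results of these data known.

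The 2 lines were selected for good (SHA) and poor (SLA) acquisition of two-way active avoidance, a task in which a rat learns to cross between compartments at a signal to avoid a shock. The groups were 3 SHA pools and 3 SLA pools, numbered 1 to 3 in each line by the sample titles. Each pool held RNA of the whole hippocampus of 3 rats, taken 2 weeks after the avoidance test. All rats of both lines had been tested, so no pool shows a line without testing. The age and sex of the rats are not in the labels used here. A pool is 1 replicate, so the spread between pools is a spread between means of 3 rats and p-values measure that spread alone. In such bulk tissue, fewer cells of a type and less RNA per cell cannot be told apart.

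Ribosomal proteins are made in near equal numbers per ribosome and their mRNAs are among the most abundant of any cell. In vertebrates these mRNAs begin with a run of pyrimidines, the 5′ terminal oligopyrimidine (TOP) tract, through which mTOR signalling controls their translation. In neurons, new protein synthesis is required for long-term memory, and ribosomal protein mRNAs are also found in dendrites and axons. An array reads the amount of an mRNA and says nothing of how much of it is translated.

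The start sites of 8 of the genes are shown because the results below turn on probe sets of these genes. Of the 40 genes, 36 had a promoter in the RefSeq table of the GRCr8 assembly, and Rpl19l4, Rpl27, Rpl30 and Rps29 had none there. Each line gives 60 bases of the coding strand, 40 before the annotated start of transcription and 20 after it, with runs of at least 8 pyrimidines that touch the 10 bases on either side of the start in capitals. The first 7 hold such a tract, and Rpl11 is shown as a member without one.
Rps24 (chr16:96477-96536, plus strand): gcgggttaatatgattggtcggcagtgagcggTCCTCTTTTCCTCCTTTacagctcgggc
Rps15 (chr7:10068096-10068155, minus strand): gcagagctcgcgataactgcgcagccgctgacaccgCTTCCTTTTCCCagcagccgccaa
Rpl35 (chr3:43165902-43165961, minus strand): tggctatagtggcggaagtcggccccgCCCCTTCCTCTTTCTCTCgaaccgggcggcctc
Rps23 (chr2:23814477-23814536, plus strand): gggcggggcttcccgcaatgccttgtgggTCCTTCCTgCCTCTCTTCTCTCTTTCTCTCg
Rplp0 (chr12:46718371-46718430, minus strand): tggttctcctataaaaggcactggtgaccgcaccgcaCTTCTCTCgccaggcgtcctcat
Rpl22 (chr5:168117921-168117980, plus strand): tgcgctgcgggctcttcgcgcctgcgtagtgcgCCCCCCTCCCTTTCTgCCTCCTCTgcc
Rpl21 (chr12:13386134-13386193, minus strand): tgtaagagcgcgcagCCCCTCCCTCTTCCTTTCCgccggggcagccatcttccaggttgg
Rpl11 (chr5:153560783-153560842, minus strand): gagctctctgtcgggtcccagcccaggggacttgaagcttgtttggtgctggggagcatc
A run of at least 8 C or T on the coding strand that touches the 10 bases on either side of the start was present in 23 of the 36 matched genes (63.9%). The same search found it in 4412 of 33469 RefSeq promoters (13.2%). In some genes, such as Rpl21, the run ended before the annotated start and so lay outside the annotated mRNA. Presence and absence of a run both rest on that annotated start. The ETS-type motif CCGGAAG, searched on both strands of the 300 bases around the start, was present in 9 of the 36 genes (25%) against 8.75% of all promoters. AAGATGG, which holds the core of the YY1 motif and was also searched on both strands, was present in 8 of 36 (22.2%) against 7.01%. A match describes the letters of the annotated window and is no evidence that a factor binds there.

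All 58 probe sets passed the filter that left out the dimmest 25% of probe sets, and 6555 probe sets were tested in all. Deposited intensities of the members ran from 19.1 to 26751, and none had a pool at the floor of 8.9. Of a list of 79 cytosolic ribosomal protein genes, 37 are among the members, 26 of the large and 11 of the small subunit. A further 24 are read only by probe sets that list several genes, and 18, among them Rplp1 and Fau, have no probe set that is named here. The remaining members are Rpl36al1, Rpl19l4 and Rps27l, which are gene copies or relatives of Rpl36a, Rpl19 and Rps27. Rodent genomes carry many processed copies of these genes, so a probe set named for 1 gene can also read near-identical transcripts, and each value is uncertain to that extent.

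No ribosomal protein gene passed the test for a difference between the 2 lines. Of the 58 probe sets, 0 passed an adjusted p of 0.05 in limma's moderated test over the 3 and 3 pools, and the background over all 6555 probe sets was also 0 (0.00%). At an unadjusted p under 0.05 the count was 0 of 58, against 98 of 6555 (1.50%). No member had its 3 SHA pools all above or all below its 3 SLA pools, against 371 of 6555 probe sets (5.66%). The adjusted p was 1.00 for each of the 58. On the log2 scale 23 members were higher and 35 lower in SHA, and 54 differed by less than 0.25. The median size of the difference was 0.089 for the members, 0.236 over all probe sets tested, and 0.141 over the 541 other probe sets of mean intensity 1000 to 9000.

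How large a difference the pools would still allow is shown by the intervals. The 95% interval of the difference lay within 1 log2 unit of 0, and so left out a 2-fold change, in 47 of 58 members (81.0%), against 33.0% of all probe sets. With the pool number as a block in the fit it did so in 57 of 58 (98.3%), against 50.9%, and the exception was Rpl30. The median SE was 0.28 for the members and 0.44 over all probe sets. Over the other probe sets of mean intensity 1000 to 9000 it was 0.27. With the block these were 0.16, 0.31 and 0.14, so the members were no more precise than other bright probe sets. In that blocked fit 0 of 58 members passed an adjusted p of 0.05 (background 0.00%). Rps15 probe set rc_AA892895_r_at alone had an unadjusted p under 0.05 (adjusted p = 0.83, limma), against 345 of 6555 probe sets (5.26%).

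**Figure D1:**
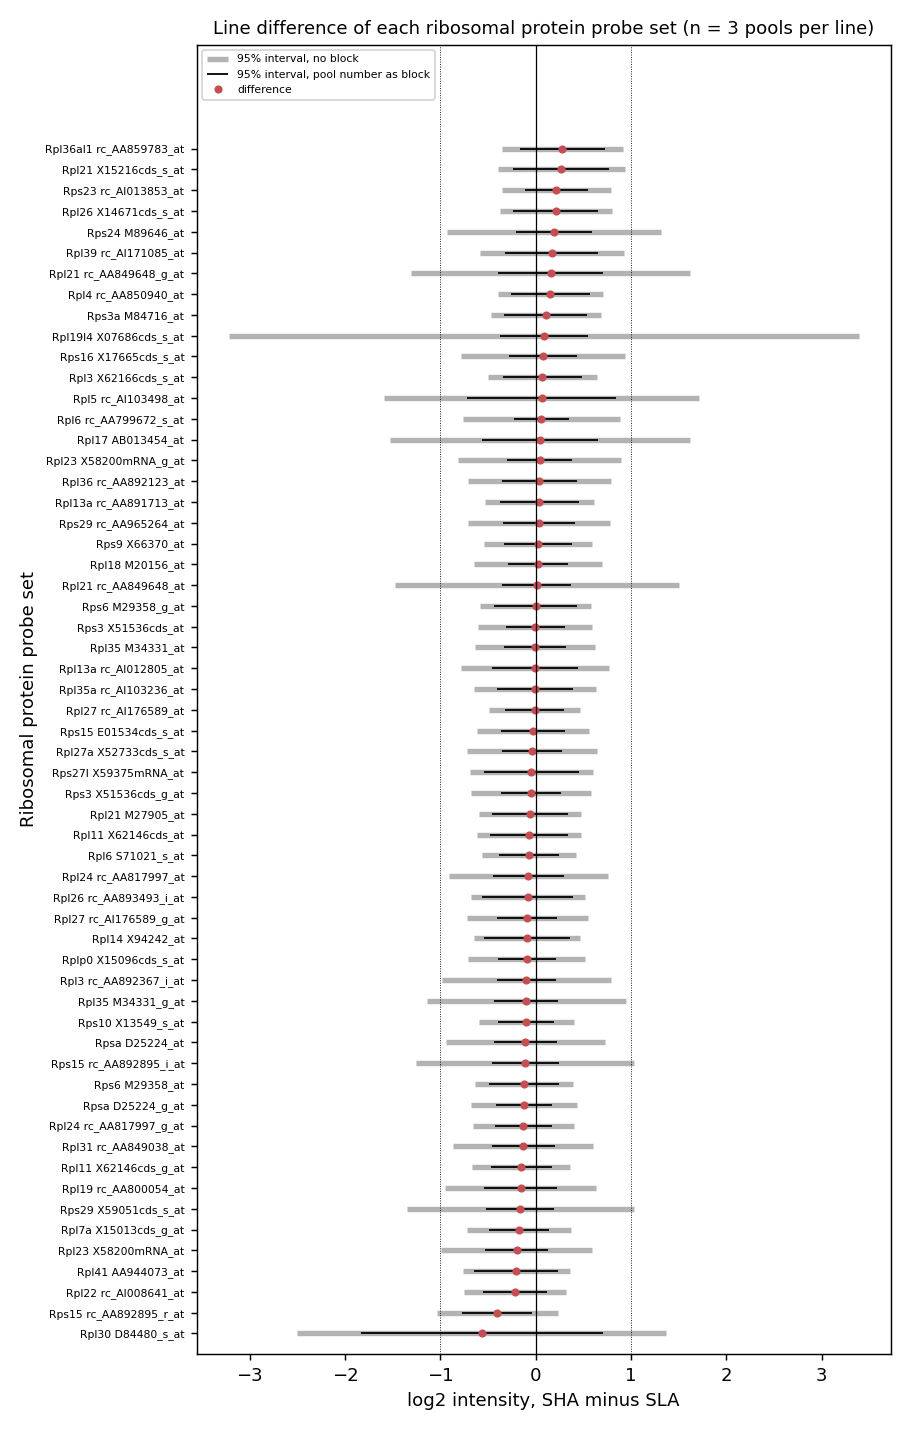
The horizontal axis gives the SHA minus SLA difference in log2 intensity for each of the 58 ribosomal protein probe sets (vertical axis), with a red point for the difference. Thick grey bars are 95% intervals without the pool number and thin black lines those with it as a block, n = 3 pools per line, and dotted lines mark 1 log2 unit. All grey bars cross 0, and with the block only Rpl30 reaches beyond a dotted line.

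Taking the brightest probe set of each gene, 16 genes were higher and 24 lower in SHA, with a median difference of -0.04 log2 and a range of -0.56 to 0.28. Over all 3812 genes tested the median was -0.03, with 1746 higher and 2066 lower. The sign of the members' median turned with single pools: it was 0.10 without SHA pool 3, where the count of lower genes was 9, and -0.20 without SHA pool 1. It was 0.01 after median centring of the arrays and -0.09 after quantile normalization, so no direction is given for the group.

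In the large subunit, 10 of 28 genes were higher and 18 lower in SHA, with a median of -0.06, and 0 passed an unadjusted p of 0.05. Rplp0 (uL10), the only gene of the lateral stalk that is a member, carries the acidic P1 and P2 proteins that recruit translation factors. It read 4598, 3546 and 4512 in SHA pools 1 to 3 and 5541.5, 3513 and 4594 in SLA pools 1 to 3, a difference of -0.09 ± 0.27 (SE). Its number 2 pools were the lowest of both lines, and the lines overlapped.

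Rpl5 and Rpl11 bind 5S ribosomal RNA, and outside the ribosome this particle inhibits Mdm2 and so stabilises p53. Rpl5 was the second dimmest member, at 228, 36.5 and 109.9 in SHA pools 1 to 3 and 191, 45.4 and 92.7 in SLA pools 1 to 3 (0.06 ± 0.74, SE). Its number 1 pools were the highest and its number 2 pools the lowest of both lines, and the lines overlapped. Rpl11 probe set X62146cds_at read 2712, 2598 and 1997 in SHA pools 1 to 3 and 2126, 2704 and 2823 in SLA pools 1 to 3 (-0.07 ± 0.24). Its second probe set, X62146cds_g_at, read 1983.5, 1619 and 1398 in SHA pools 1 to 3 and 1883, 1905 and 1713 in SLA pools 1 to 3 (-0.15 ± 0.23), and in both the highest SHA pool was pool 1.

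7 members (Rpl17, Rpl19, Rpl22, Rpl26, Rpl31, Rpl35 and Rpl39) were listed at the exit of the tunnel through which the nascent chain leaves the ribosome. 2 of them were higher and 5 lower in SHA, median -0.10. Rpl22 read 2312.5, 2291.5 and 1957 in SHA pools 1 to 3 and 3079.5, 2149 and 2450.5 in SLA pools 1 to 3 (-0.22 ± 0.24). SHA was lower in 2 of its 3 pool numbers, and SLA pool 2 lay below SHA pools 1 and 2. Rpl39, a small protein that lines the tunnel, read 895, 1288 and 862 in SHA pools 1 to 3 and 533, 1178.5 and 1113 in SLA pools 1 to 3 (0.17 ± 0.34). In that gene SLA pool 1 stood lowest of the 6. Rpl26 probe set X14671cds_s_at read 3832, 2717 and 2366.5 in SHA pools 1 to 3 and 2345, 2333 and 2907 in SLA pools 1 to 3 (0.21 ± 0.26), with SHA pool 1 the highest, while its other probe set, rc_AA893493_i_at, differed by -0.08 ± 0.27. Rpl19, one of the 4 brightest members, read 7080.3, 4718 and 3857.5 in SHA pools 1 to 3 and 8327, 4009 and 5369.5 in SLA pools 1 to 3 (-0.16 ± 0.35). Both its number 1 pools were above its other 4 pools.

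Among the other large-subunit members, the largest upward difference was that of Rpl36al1, at 597, 693 and 635.5 in SHA pools 1 to 3 and 356, 606.5 and 679 in SLA pools 1 to 3 (0.28 ± 0.28). Here SLA pool 1 was low and the other 5 pools lay between 597 and 693. Rpl21 probe set X15216cds_s_at had the same shape, at 1119.6, 1293 and 1037 in SHA pools 1 to 3 and 620.3, 1056.5 and 1310.4 in SLA pools 1 to 3 (0.27 ± 0.30). Rpl4, which reaches into the tunnel wall, read 1367, 1537 and 1259 in SHA pools 1 to 3 and 988, 1233 and 1581 in SLA pools 1 to 3 (0.15 ± 0.25). In all 3 of these the SHA excess was present in pool numbers 1 and 2 and turned in number 3.

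On the lower side, Rpl30 had the largest difference, with a wide error, at 19.1, 63.4 and 229 in SHA pools 1 to 3 and 88.2, 52.5 and 194 in SLA pools 1 to 3 (-0.56 ± 0.86). SHA pool 1 gave the lowest value of any member, and without that pool the difference was 0.32. A brighter probe set that lists Rpl30 with its copies, rc_AI233749_at, is no member and did not show this difference. It read 1501, 1268 and 764 in SHA pools 1 to 3. In SLA pools 1 to 3 it read 1350, 880 and 1213, a difference of 0.004 ± 0.30 (SE). Rpl41, the smallest ribosomal protein, read 517, 617 and 474 in SHA pools 1 to 3 and 498, 615 and 752.5 in SLA pools 1 to 3 (-0.20 ± 0.25), with SLA pool 3 above the rest. Rpl23 probe set X58200mRNA_at read 2121, 1405 and 1075 in SHA pools 1 to 3 and 2692, 1334 and 1351 in SLA pools 1 to 3 (-0.20 ± 0.35). It followed the pool number in both lines, with number 1 highest. Rpl7a read 1868, 1767 and 2293 in SHA pools 1 to 3 and 2444, 1774 and 2499 in SLA pools 1 to 3 (-0.17 ± 0.24). Rpl24 probe set rc_AA817997_g_at read 3167.5, 3087 and 2390.2 in SHA pools 1 to 3 and 3341, 3155 and 2891 in SLA pools 1 to 3 (-0.13 ± 0.24). In these last genes SHA was below SLA in all 3 pool numbers, by 0.01 log2 in Rpl7a pool number 2. Rpl27a, a bright member, read 7844.5, 5133 and 4895 in SHA pools 1 to 3 and 7507, 4942 and 5753 in SLA pools 1 to 3 (-0.04 ± 0.30), again with number 1 highest in both lines.

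In the small subunit, 6 of 12 genes were higher and 6 lower in SHA, with a median of -0.01, and 0 passed an unadjusted p of 0.05. The head of the subunit was represented by Rps3, which lies at the mRNA entry, Rps10, Rps15, Rps16 and Rps29. 1 of these was higher and 4 lower, median -0.05. The lowest p of any member was that of Rps15 probe set rc_AA892895_r_at (adjusted p = 1.00, limma), at 1424, 1244 and 2287.5 in SHA pools 1 to 3 and 2282, 1748 and 2349.5 in SLA pools 1 to 3 (-0.40 ± 0.28). SHA pools 1 and 2 were the lowest of the 6, and SHA pool 3 lay among the SLA pools. The other Rps15 probe sets differed by -0.11 ± 0.51 and -0.03 ± 0.26.

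Rps29, a zinc-binding protein of the head, gave the brightest signal of all members. Probe set X59051cds_s_at read 21611, 8568 and 9005 in SHA pools 1 to 3 and 26751, 7886 and 11064 in SLA pools 1 to 3 (-0.16 ± 0.53). Probe set rc_AA965264_at read 12959, 8133 and 8905 in SHA pools 1 to 3 and 10927, 7092 and 11228 in SLA pools 1 to 3 (0.04 ± 0.33). Both were highest in the number 1 pools, except that SLA pool 3 was slightly above SLA pool 1 on the second.

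Members of the body and platform were Rps23, Rps9, Rps3a, Rpsa, Rps6 and Rps24, of which 5 were higher and 1 lower in SHA, median 0.07, Rps6 being higher by 0.00. Rps23, which lies at the decoding centre, read 4311, 2961 and 3206 in SHA pools 1 to 3 and 3143, 2539.7 and 3259 in SLA pools 1 to 3 (0.22 ± 0.25). Rps24 read 946, 331 and 582 in SHA pools 1 to 3 and 823, 240.2 and 618 in SLA pools 1 to 3 (0.19 ± 0.50). Rps3a read 2939.8, 2688 and 2465 in SHA pools 1 to 3 and 1982, 2422 and 3246 in SLA pools 1 to 3 (0.11 ± 0.26). The SHA pool was above the SLA pool in numbers 1 and 2 and below it in number 3 in each of these. Rps6, the protein phosphorylated by S6 kinase and a common readout of mTOR activity, had 2 probe sets: M29358_g_at read 2092, 2326 and 1679 in SHA pools 1 to 3 and 1539, 2200 and 2413 in SLA pools 1 to 3 (0.00 ± 0.26), and M29358_at read 1207, 1028 and 895 in SHA pools 1 to 3 and 1158, 985 and 1252 in SLA pools 1 to 3 (-0.12 ± 0.23). Neither separated the lines. Rps27l, a relative of Rps27 induced by p53, was a dim member at 303, 250 and 190.5 in SHA pools 1 to 3 and 276, 231 and 248 in SLA pools 1 to 3 (-0.04 ± 0.29).

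Within single pool numbers the members did not move evenly. In number 1, 38 of 58 probe sets were higher in SHA (65.5%, against 44.9% of all probe sets), with a median difference of 0.07 (all probe sets -0.09). In number 2, 44 of 58 were higher in SHA (75.9%, against 43.8%), median 0.09 (all -0.05). In number 3, 50 of 58 were lower in SHA (86.2%, against 44.2%), median -0.30 (all 0.07). Each of these compares 1 pool with 1 pool and has no replicate, so no test was made. After quantile normalization 31 of 58 were higher in number 1 (all probe sets 50.2%) and 34 in number 2 (all 49.3%), so the excess in number 1 was close to the background there, while 47 were lower in number 3 (all 50.6%). The medians were 0.03, 0.04 and -0.23 after quantile normalization and 0.30, 0.21 and -0.48 after median centring, which moved the median of all probe sets to 0.14, 0.07 and -0.11.

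Members with 1 sign in all 3 pool numbers were few. 4 were lower in SHA each time, namely Rpl24 rc_AA817997_g_at, Rpl7a, Rps10 and Rps15 rc_AA892895_r_at (6.90%, against 15.2% of all probe sets). Rpl6 rc_AA799672_s_at alone was higher each time (1.72%, against 12.7%), at 4061, 2004 and 2210.4 in SHA pools 1 to 3 and 3919, 1880.3 and 2154 in SLA pools 1 to 3. Rps10 read 1706, 1426 and 1625 in SHA pools 1 to 3 and 1807, 1454 and 1846 in SLA pools 1 to 3 (-0.10 ± 0.22), and its highest value was SLA pool 3. These shares lie below the background.

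**Figure D2:**
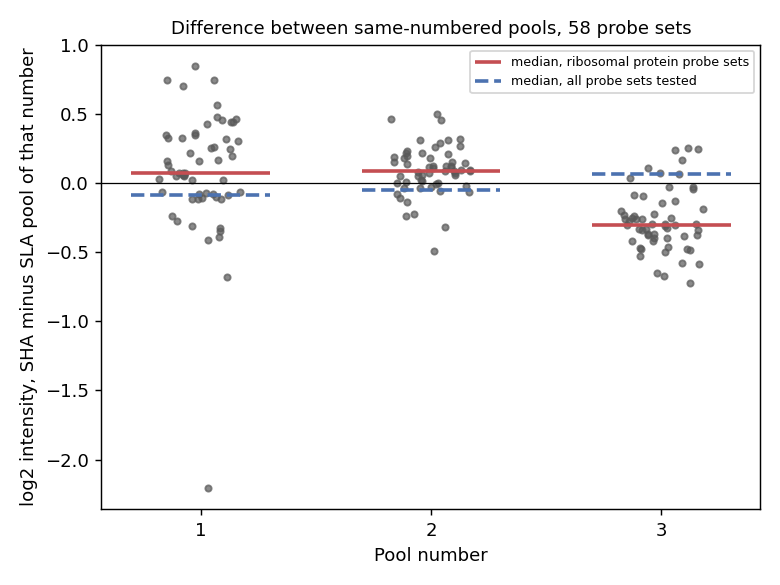
Each grey point is 1 of the 58 ribosomal protein probe sets, placed at its pool number (horizontal axis) and at the log2 intensity of the SHA pool minus that of the SLA pool of the same number (vertical axis). Red bars are medians over the members (0.07, 0.09 and -0.30) and dashed blue bars medians over all probe sets tested. The members lie mostly above 0 in numbers 1 and 2 and mostly below it in number 3.

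Most members were highest in the number 1 pools of both lines. The range between the 3 pool numbers was wider than the line difference in 58 of 58 members, against 88.6% of all probe sets, and exceeded 1 log2 unit in 16 (27.6%), against 36.5%. Its median was 0.59 log2 for the members, 0.79 over all probe sets and 0.50 over the other probe sets of mean intensity 1000 to 9000. The number 1 pools were the highest in both lines in 34 of 58 members (58.6%), against 18.2% of all probe sets. The number 2 pools were highest in both lines in 2 members (3.45%, against 20.8%) and the number 3 pools in 3 (5.17%, against 13.2%). The full order was the same in both lines in 21 of 58 members (36.2%), close to the 33.5% of all probe sets, and in 15 members (25.9%, against 9.17%) it was number 1, then 3, then 2. The labels do not say what same-numbered pools share.

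**Figure D3:**
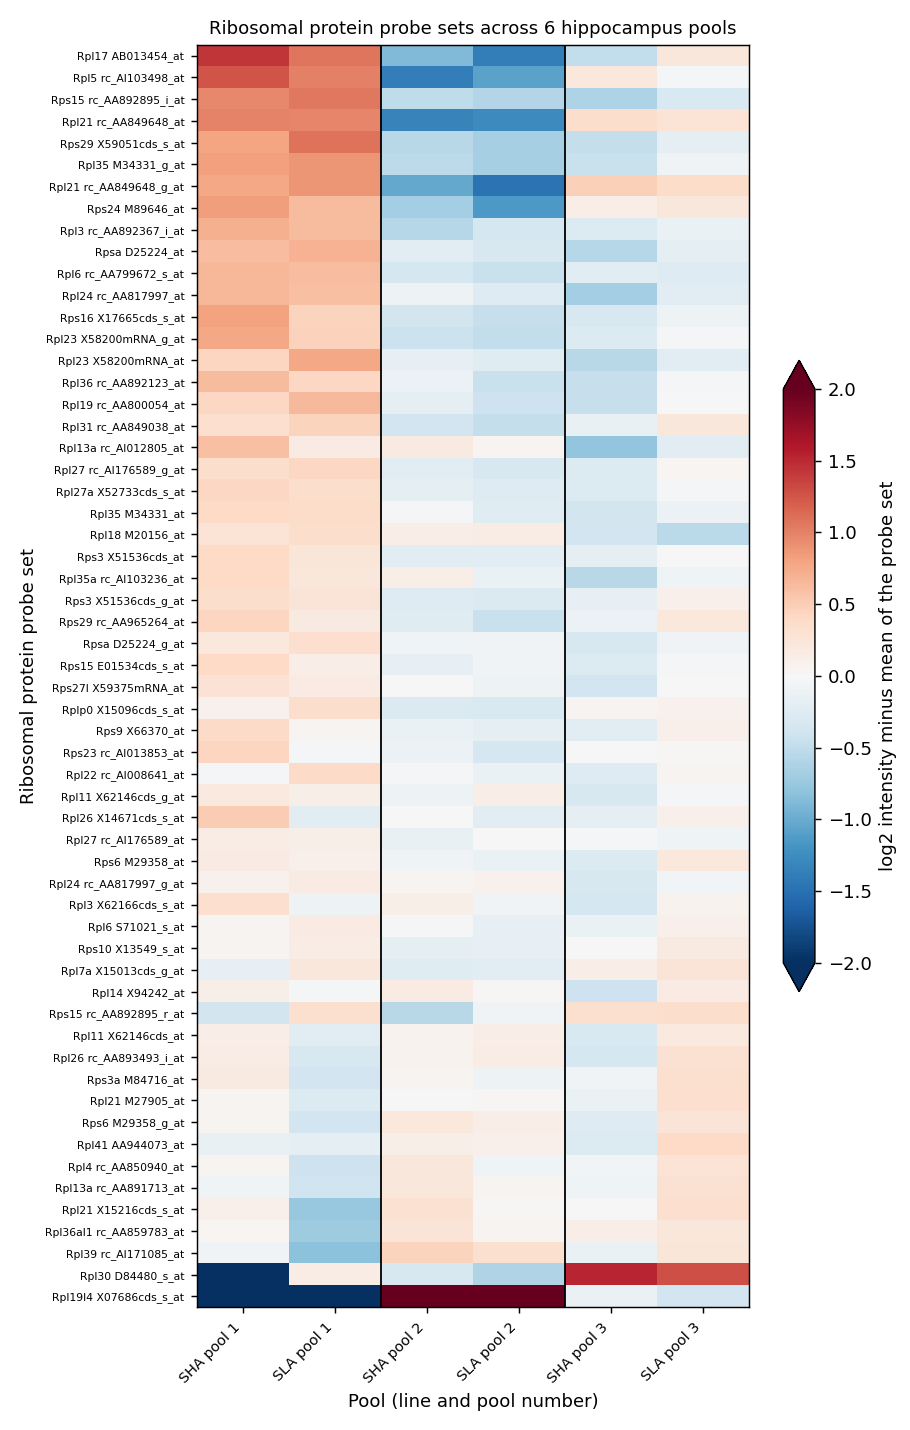
Rows are the 58 ribosomal protein probe sets and columns the 6 pools, with same-numbered SHA and SLA pools side by side between black lines. Colour gives log2 intensity minus the mean of the probe set over the 6 pools, from blue (lower) to red (higher), with colours saturating at 2 units. The number 1 pair is the highest in both lines for 34 of the 58 probe sets, and Rpl19l4 at the bottom runs the other way.

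A moderated F test of the pool number, chosen after the data were seen, was made in the limma fit with line and pool number. It gave an adjusted p under 0.05 for 16 of 58 members (27.6%), against 498 of 6555 probe sets (7.60%) and 100 of the 541 other probe sets of mean intensity 1000 to 9000 (18.5%). An unadjusted p under 0.05 was given by 33 members (56.9%, against 28.4%). The number of calls changed with the settings: without the intensity trend, or without the filter on dim probe sets, 0 members passed. 7 passed after quantile normalization and 4 after median centring. Leaving out SHA pool 2 or SHA pool 3 gave 8 calls each, and leaving out SLA pool 2 gave 5. The following values are therefore best read as levels.

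Rpl19l4 (probe set X07686cds_s_at) had the widest range of all members, at 54.5, 2954 and 337 in SHA pools 1 to 3 and 68.1, 2368 and 282 in SLA pools 1 to 3. Its geometric mean of both lines was 60.9 in the number 1 pools, 2645 in the number 2 pools and 308 in the number 3 pools, a 43.4-fold range (adjusted p = 8e-05, limma F test). The order was opposite to that of most members, with number 2 the highest in both lines. Rpl19 itself was highest in number 1, as given above.

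The other 15 calls had number 1 highest. The next lowest adjusted p-values were those of Rpl21 rc_AA849648_at (0.0018), Rps15 rc_AA892895_i_at (0.0055) and Rps29 X59051cds_s_at (0.0071, limma), whose values stand with the other probe sets of those genes. Rps24 had geometric means of 882 in the number 1 pools, 282 in the number 2 pools and 599.9 in the number 3 pools (adjusted p = 0.01, limma). Rpl17, at the tunnel exit, read 879, 178 and 233 in SHA pools 1 to 3 and 690.1, 126 and 384 in SLA pools 1 to 3, a 5.20-fold range (adjusted p = 0.014). Rpl5 had a 5.13-fold range (adjusted p = 0.034). In these 3 genes the number 2 pools were the lowest in both lines. Rpl35 probe set M34331_g_at read 7249.8, 2865.5 and 3041.5 in SHA pools 1 to 3 and 7569, 2596 and 3942 in SLA pools 1 to 3 (adjusted p = 0.008). Rps16 read 8452, 3738 and 3849 in SHA pools 1 to 3 and 6550.1, 3516 and 4514 in SLA pools 1 to 3 (adjusted p = 0.032). Here both number 1 pools were above the other 4. The remaining calls were 1 probe set each of Rpl3, Rpl6, Rpl24 and Rpsa, both of Rpl23 and a second of Rpl21.

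Probe sets of a single gene did not show the pool number alike. Rpl21 had 4: rc_AA849648_at read 977, 194 and 624 in SHA pools 1 to 3 and 961, 203 and 593.5 in SLA pools 1 to 3, a 4.89-fold range between numbers (adjusted p = 0.0018, limma F test). Its partner rc_AA849648_g_at read 334, 96.0 and 270.3 in SHA pools 1 to 3 and 359.5, 69.7 and 249.8 in SLA pools 1 to 3 (adjusted p = 0.013). M27905_at, by contrast, read 1996, 1898 and 1742 in SHA pools 1 to 3 and 1587, 1947 and 2417.5 in SLA pools 1 to 3 (adjusted p = 0.74). The range between numbers was 0.21 log2 on M27905_at and 2.29 on rc_AA849648_at, for probe sets annotated to the same gene. For Rps15 it was 0.43 to 1.55, with rc_AA892895_i_at at 1369, 497 and 463 in SHA pools 1 to 3 and 1465, 472 and 573 in SLA pools 1 to 3 and E01534cds_s_at at 4122.5, 2775 and 2566 in SHA pools 1 to 3 and 3427, 2979 and 3051 in SLA pools 1 to 3. Rpl3 ran from 0.26 (X62166cds_s_at) to 1.14 (rc_AA892367_i_at), and Rpl6 from 0.21 (S71021_s_at) to 1.04 (rc_AA799672_s_at).

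In 12 of the 15 genes with several member probe sets the line differences lay closer together than the ranges between pool numbers did, and in Rpl23, Rpl26 and Rps6 they did not. Of these 15 genes, 8 had line differences of both signs and 0 had differences over 1 log2 unit apart, and the widest gap was 0.37 in Rps15. Probes differ in binding, so a bright or dim probe set says little of the amount of its mRNA relative to that of another gene.

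**Figure D4:**
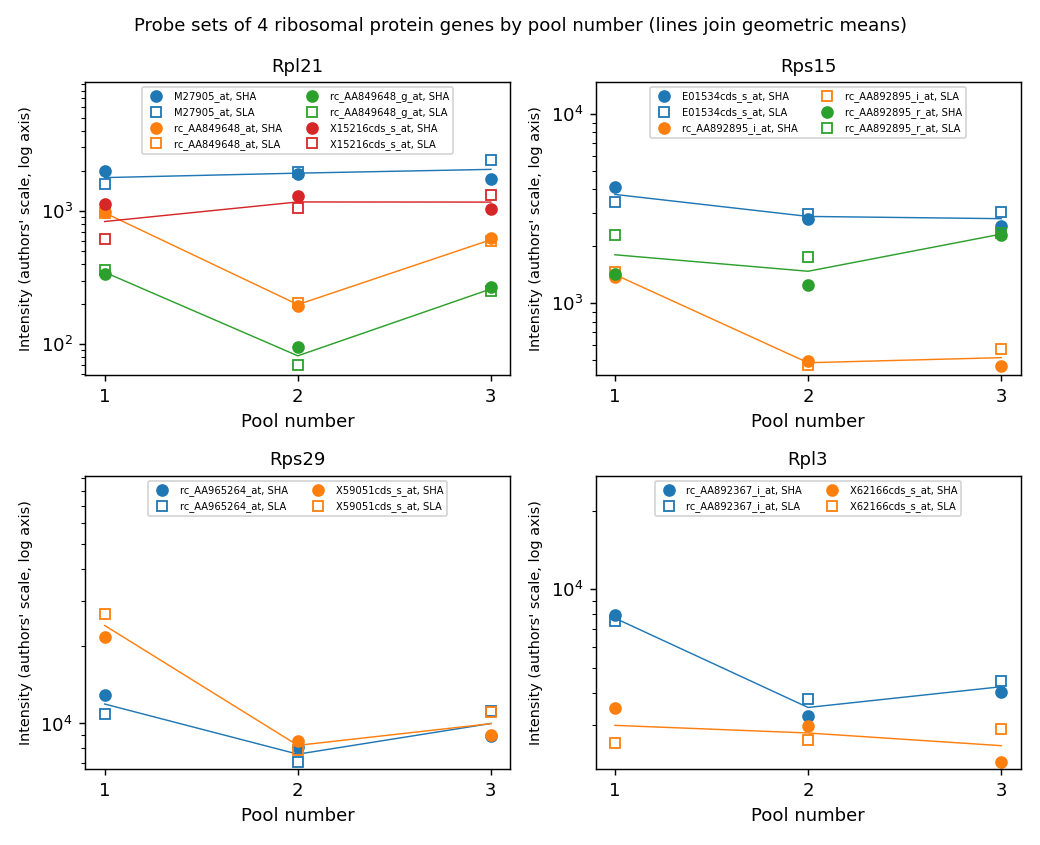
Deposited intensity (vertical axis, log scale) is plotted by pool number for each member probe set of Rpl21, Rps15, Rps29 and Rpl3, in 1 colour per probe set. Filled circles are SHA pools, open squares SLA pools, and lines join the geometric means of both. Probe sets of the same gene follow the pool number to different degrees, as in Rpl21, and in Rpl21 X15216cds_s_at the lines lie further apart in number 1 than the numbers do.

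Line differences were near 0 in genes with and without the pyrimidine tract shown above. Over 33 probe sets of the 23 genes with a tract the median line difference was -0.03 log2, the median range between pool numbers 0.61 and 10 were called by pool number. Over 19 probe sets of the 13 genes without it, the values were -0.04, 0.32 and 4. Called by pool number were 7.60% of all probe sets tested and 18.5% of the other probe sets of mean intensity 1000 to 9000. The values with and without a tract are descriptions of unequal groups and were not tested.

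Array controls and some cell markers also ran with the pool number. The geometric mean of 9 bacterial and phage spike probe sets was 5458, 1121 and 2279 in SHA pools 1 to 3 and 12282, 640 and 1564 in SLA pools 1 to 3. That of 6 antisense Gapdh and actin probe sets was 1352, 30.1 and 365 against 1432, 21.3 and 219, the same order of 1, then 3, then 2 as in 15 members. The summed intensity of 6 of 8 oligodendrocyte markers was 21818, 15529 and 15246 in SHA and 26795, 14961 and 16923 in SLA. The 4 measured of 9 blood markers summed to 4973, 2311 and 2509, and 4549, 3043 and 2231. The 10 measured of 12 neuron markers summed to 15023, 16685 and 17599, and 13364, 15329 and 15484. By sums, the hippocampus, meninges and fibroblast, and microglia lists were also highest in number 1 in both lines. Hippocampus markers summed to 9085.5, 6432 and 8403 in SHA and 8047, 5716 and 8030 in SLA. Meninges and fibroblast markers summed to 1985, 1768.5 and 1207, and 2309, 1764 and 1903. The astrocyte, choroid plexus and endothelial lists were not highest in number 1 in both lines. The 7 measured of 8 astrocyte markers summed to 26039, 22857 and 25151, and 23167, 20228 and 24189. The 5 measured of 8 endothelial markers summed to 944.5, 1355 and 995, and 1196, 1373 and 1144, highest in number 2. The mean log2 intensity of the astrocyte and endothelial lists gave other orders. For astrocyte markers it was 10.21, 10.50 and 10.56 in SHA and 9.52, 10.52 and 10.52 in SLA, lowest in number 1. For endothelial markers it was 6.99, 6.77 and 7.10, and 7.49, 6.67 and 7.07, lowest in number 2. The order of a list thus depends on the summary used. Between the lines, 9 of 10 neuron markers were higher in SHA (median 0.28) and all 7 measured of 11 microglia markers lower (median -0.52), with microglia sums of 1217, 1047 and 1137 in SHA and 2113, 1200.1 and 1462 in SLA. None of these markers was at 0 in all pools, but 1 astrocyte marker had a pool at or below the floor of 8.9. The part of any of these markers in the ribosomal protein values was not tested. 5 of 8 hippocampal markers, Neurod2 and Calb1 among them, were measured and above 0 in every pool. Between the lines, the 3′ to 5′ ratios of Gapdh and actin gave exact two-sided permutation p-values of 0.9 and 0.2, where the smallest possible is 0.1. The trimmed mean of the deposited intensities was 250.3 to 250.4 in every pool. The share of all signal taken by the 58 members was 4.88%, 4.12% and 3.54% in SHA pools and 4.78%, 4.04% and 4.41% in SLA pools.

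Other parts of the translation machinery, by lists, gave no adjusted call between the lines either, and none of the genes of the 6 lists had an unadjusted p under 0.05 in limma without the block. With the pool number as a block, 5 of 60 genes did, against 5.26% of all probe sets, all 5 lower in SHA (Eif2b2, Eif2b4, Eif3d, Eif4ebp1 and Mlst8, adjusted p = 0.83 each, limma). Of 5 measured genes listed with the elongation factors 3 were higher and 2 lower in SHA, median 0.02. The list holds Eef2k, the kinase of Eef2, which had its largest difference (-0.56 ± 0.41). Eef2k read 76.3, 88.8 and 59.3 in SHA pools 1 to 3 and 100.7, 129 and 98.7 in SLA pools 1 to 3, without overlap. Eef1a1, the factor that brings aminoacyl-tRNA to the ribosome and itself a TOP mRNA, read 2496, 2062 and 1837.5 in SHA pools 1 to 3 and 1708, 1895 and 2596 in SLA pools 1 to 3 (0.06 ± 0.25). Its SHA excess in number 1 turned in number 3, as in the ribosomal protein genes. Eef2, the translocation factor, read 4975, 4232 and 4751 in SHA pools 1 to 3 and 5081, 3869 and 4862 in SLA pools 1 to 3 (0.02 ± 0.25). The elongation factors' medians within pool numbers were 0.14, 0.13 and -0.50, and those of the ribosomal protein genes were 0.15, 0.09 and -0.30.

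Of 19 initiation factor and regulator genes 9 were higher and 10 lower, median -0.02. The lowest p among them was that of Eif3d, a subunit of the factor that recruits the 40S subunit to mRNA, at 441, 391 and 349 in SHA pools 1 to 3 and 595, 541 and 536 in SLA pools 1 to 3 (-0.51 ± 0.23, adjusted p = 1.00, limma). Its SHA pools were all below its SLA pools. Eif2b2, a subunit of the exchange factor for eIF2, read 578, 480.2 and 572 in SHA pools 1 to 3 and 879.8, 645 and 726 in SLA pools 1 to 3 (-0.46 ± 0.23), also without overlap. Eif4ebp1, an mTOR substrate that binds eIF4E, read 247.5, 484 and 156 in SHA pools 1 to 3 and 293, 693 and 519.5 in SLA pools 1 to 3 (-0.83 ± 0.45), and the lines overlapped. 8 genes of mTOR and S6 kinase signalling had 2 higher and 6 lower, median -0.14. Mlst8, a subunit of both mTOR complexes, read 191, 253 and 376 in SHA pools 1 to 3 and 428, 284 and 796 in SLA pools 1 to 3 (-0.80 ± 0.41), lower in SHA in each pool number. Mtor read 226, 336 and 275 in SHA pools 1 to 3 and 391, 298 and 230.3 in SLA pools 1 to 3 (-0.12 ± 0.30) and Rps6kb1, the kinase of Rps6, read 160, 147 and 165 in SHA pools 1 to 3 and 193, 189 and 149 in SLA pools 1 to 3 (-0.16 ± 0.31). Neither Mtor nor Rps6kb1 separated the lines. 11 ribosome biogenesis genes had 6 higher and 5 lower, median 0.03, and 7 other TOP mRNAs had 5 higher and 2 lower, median 0.03. Rack1, a 40S-bound scaffold encoded by a TOP mRNA, read 1782, 1098 and 1163.5 in SHA pools 1 to 3 and 1489, 1069 and 1251 in SLA pools 1 to 3 (0.06 ± 0.26), with number 1 highest in both lines.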

How the data were processed

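Total RNA from 6 hippocampus pools, each of 3 rats, was read on 1-colour arrays. The authors deposited 1 intensity per probe set and pool, on a linear scale; per the labels nothing more is said of scaling, and the software is not given in the sources used here. Genes were named through the platform annotation, which gave 1 symbol for 7006 probe sets, several for 308 and none for 1426 of the 8740 that are no controls (59 controls were left out), with symbols updated through a RefSeq table of GRCr8, which matched 6996.

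Intensities under the 10th percentile (8.9) were set to it, log2 was taken, and the dimmest 25% of probe sets were left out, which kept 6555. The test between lines was the moderated, two-sided one of limma 3.58.1 (R 4.3.3; lmFit, then eBayes with an intensity trend), adjusted by Benjamini-Hochberg over all 6555, and differences are in log2 units with their SE. The fitting procedure was checked on simulated data that held no variation between pool numbers, so the check says nothing of power in these data. The precision of each value is limited by the 3 pools per line. Genes named were members with an unadjusted p under 0.05 or with lines that do not overlap (none met this), the 8 members of smallest p in each direction, stalk and 5S genes, and the 4 brightest and 4 dimmest, with a few chosen after their values were seen, for the pool number and several probe sets. The members and lists were chosen with earlier results of these data known.

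Pool numbers were taken as pairing the pools on the data alone. Deviations from the line means of same-numbered pools correlated at 0.44, 0.68 and 0.13 over all probe sets. Over the members these values were 0.84, 0.95 and 0.67. The 0.13 of number 3 was below the 0.16 that SHA pool 3 and SLA pool 1 gave over all probe sets. Every other pair of unlike numbers gave a negative value, over all probe sets and over the members. Deviations within a line cancel by construction, so a positive value for same-numbered pools forces a negative one among the unlike pairs. The negative values are therefore no separate evidence of pairing. All probe sets thus do not set the number 3 pools apart as a pair, and fits that use the pool number depend on that pairing. Alternatives were other floors, filters and scalings, a fit without the trend or with a robust one, weighted arrays, a block for the pool number, and leaving out each pool.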

Additional observations from a re-analysis of the deposited data

How the results depend on the processing

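No setting gave an adjusted p under 0.05 for any ribosomal protein probe set in the line comparison. Over 25 named probe sets and 18 settings, 390 of 449 values kept their direction and 59 changed it, 34 of them when single pools were left out. The cause was not tested. After quantile normalization the difference turned to -0.22 in Rps29 rc_AA965264_at. After median centring the difference turned to 0.016 in Rpl27a X52733cds_s_at and 0.0099 in Rps27l X59375mRNA_at. With array weights the difference turned to -0.10 in Rpl21 X15216cds_s_at, 0.039 in Rpl23 X58200mRNA_at, 0.012 in Rpl27a X52733cds_s_at, -0.0091 in Rpl36al1 rc_AA859783_at, -0.13 in Rpl39 rc_AI171085_at, -0.11 in Rpl4 rc_AA850940_at, -0.10 in Rps29 rc_AA965264_at, 0.079 in Rps29 X59051cds_s_at and -0.18 in Rps3a M84716_at. With the replicate block and array weights the difference turned to 0.070 in Rpl19 rc_AA800054_at, 0.010 in Rpl27a X52733cds_s_at, -0.16 in Rpl5 rc_AI103498_at, 0.037 in Rps27l X59375mRNA_at and 0.0060 in Rps29 X59051cds_s_at. Without both number 1 pools the difference turned to -0.023 in Rpl21 X15216cds_s_at, -0.039 in Rpl26 X14671cds_s_at, 0.26 in Rpl30 D84480_s_at, -0.12 in Rpl39 rc_AI171085_at, -0.0052 in Rpl4 rc_AA850940_at, -0.035 in Rpl5 rc_AI103498_at, -0.068 in Rps29 rc_AA965264_at and -0.12 in Rps3a M84716_at. With each pool left out in turn, the differences that changed direction ran from -0.54 to 0.71 in Rpl21 rc_AA849648_g_at, -1.47 to 0.32 in Rpl30 D84480_s_at, -0.55 to 0.77 in Rpl5 rc_AI103498_at, -0.33 to 0.58 in Rps24 M89646_at, -0.18 to 0.17 in Rps29 rc_AA965264_at and -0.25 to 0.13 in Rpl27a X52733cds_s_at. They ran from -0.20 to 0.37 in Rpl39 rc_AI171085_at, -0.27 to 0.061 in Rplp0 X15096cds_s_at, -0.59 to 0.34 in Rps29 X59051cds_s_at, -0.19 to 0.068 in Rpl11 X62146cds_at, -0.40 to 0.12 in Rpl19 rc_AA800054_at and -0.46 to 0.13 in Rpl23 X58200mRNA_at. The rest ran from -0.20 to 0.0017 in Rpl24 rc_AA817997_g_at, -0.20 to 0.13 in Rps27l X59375mRNA_at, -0.039 to 0.50 in Rpl21 X15216cds_s_at, -0.0024 to 0.46 in Rpl36al1 rc_AA859783_at, -0.014 to 0.33 in Rpl4 rc_AA850940_at and -0.060 to 0.30 in Rps3a M84716_at.

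With the pool number as a replicate block, 1 member had an unadjusted p under 0.05 (Rps15 rc_AA892895_r_at) and 345 of all probe sets did. With block and array weights these were 2 (also Rps24, 0.35, adjusted p = 0.32 in limma) and 871, and the block changed no adjusted call. The count was 0 to 1 with single pools left out, 1 without SHA pool 3 (Rps15 again). Over all probe sets the 98 became 203 without a filter, 63 without the dimmest 50%, 354 with array weights and 57 to 152 with single pools left out. The genes lower in SHA numbered 9 to 33. The count called by pool number, 16 of the members and 498 of all, was 7 and 172 after quantile normalization, 4 and 155 after median centring, 0 and 4 without a filter, 0 and 4 without the trend, 1008 of all with array weights, and 5 to 23 and 95 to 1382 with single pools left out (23 and 1382 without SHA pool 1, 837 without SLA pool 1). The pool number test could not be fitted without both number 1 pools.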

Other observations

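Probe sets whose annotation lists several genes, with a ribosomal protein gene among them, numbered 40, and 39 passed the filter. They held genes that the 58 members lack, such as Rps14, Rps18, Rpl32 and the stalk gene Rplp2. Within pool numbers 1, 2 and 3 they were higher in SHA in 29, 35 and 2 of 39 and lower in 10, 4 and 37, with medians of 0.20, 0.10 and -0.31. Rplp2, listed with 2 relatives, read 4948.5, 2693 and 2280.4 in SHA pools 1 to 3 and 3965, 2578 and 2789.6 in SLA pools 1 to 3. Rps25, listed with its copies, read 1716, 1476 and 1003 in SHA pools 1 to 3 and 1004, 1321 and 2284 in SLA pools 1 to 3, the difference in number 3 being -1.19 log2. Rpl5, listed with Rpl5l1 on M17419_at, read 5106, 3643 and 2945 in SHA pools 1 to 3 and 3928, 3666 and 4553 in SLA pools 1 to 3, without the number range seen on the member probe set of Rpl5. Rps24, listed with a pseudogene on M89646_g_at, read 3831, 2854 and 2068 in SHA pools 1 to 3 and 2241, 2244 and 3309 in SLA pools 1 to 3, where the range between numbers was 0.21 log2.

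Probe set rc_AA859372_s_at lists Rpl4 together with the 18S and 45S ribosomal RNA genes and 3 others. It read 49839.8, 82.7 and 2679.6 in SHA pools 1 to 3 and 59811.5, 32.3 and 1409.8 in SLA pools 1 to 3, a range of 1056-fold between pool numbers (adjusted p = 1.3e-05, limma F test). The order was number 1, then 3, then 2 in both lines, and which of the listed RNAs gave the signal was not tested.

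Mitochondrial ribosomal protein genes, which serve translation inside mitochondria, were measured by 14 genes. 5 were higher and 9 lower in SHA, median -0.04, and the medians within pool numbers were 0.12, -0.03 and -0.15. None had an unadjusted p under 0.05 in limma. Mrpl3 read 423, 356 and 172 in SHA pools 1 to 3 and 349.8, 358 and 208 in SLA pools 1 to 3 (-0.00 ± 0.39) and Mrps6 read 279.7, 223 and 207 in SHA pools 1 to 3 and 235, 217 and 205 in SLA pools 1 to 3 (0.10 ± 0.28).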
